A study of Mus musculus with 7 samples.

Results

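Immunoglobulin variable segments are the germline gene pieces that encode most of the antigen-binding domain of an antibody. Their transcripts were measured here in samples labelled as CD8+ T cells. Members were all gene symbols starting Ighv (heavy chain), Igkv (kappa light chain) or Iglv (lambda light chain) chosen by level, with 1 TPM or more, summed over transcripts, in 3 or more of the 7 libraries. TPM counts transcripts corrected for their length and relative to a fixed library total. The rule was met by 129 segments, 61 Ighv, 65 Igkv and 3 Iglv, of the 346 variable symbols and the 56422 symbols in the table. The rule used the levels in these same libraries, so that the presence of the 129 segments is a description and carries no test.

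The libraries came from cells in the ascites of mice bearing models of peritoneal metastasis, 4 without treatment (controls) and 3 given propionate together with butyrate (treated), short-chain fatty acids of bacterial fermentation in the gut. All 7 carry the same cell type label, and the labels give no strain, age, sex, dose, duration, tumour line or sorting marker for either group. One of the treated libraries has a number that no treated sample carries and is called the third treated library. Whether the libraries of a group come from different animals is not stated in the labels. The p-values therefore reflect only how far these samples vary, and that variation may be technical.

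In each developing B cell, recombination joins 1 heavy-chain V segment to a D and a J segment, and 1 light-chain V segment to a J segment, which fixes the antibody that the cell and its descendants express. A B cell therefore transcribes 1 heavy and 1 light rearranged chain at a high level, and its plasma cell descendants do so far more strongly. Most mouse B cells use a kappa light chain and a minority use lambda. The peritoneal cavity is the main home of B-1 cells, which express a restricted set of segments. T cells assemble their receptors from other V segments and do not make antibody.

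All 129 members are annotated as functional V genes in the GENCODE M21 reference (mouse build GRCm38). They make up 59.4% of the 217 functional symbols in the table, and none of the 129 symbols annotated as pseudogenes met the rule. Of those pseudogenes, 9 were above 0 in any library, with a highest value of 2.45 TPM. The 217 variable symbols outside the rule comprised 149 at 0 in every library and 68 above 0, the highest at 10.57 TPM in a single library. At the threshold itself, Ighv2-2, Igkv14-100, Igkv4-50 and Igkv9-124 were included with a third-highest value of 1.02 TPM, and Ighv3-8 and Igkv8-18 were left out at 0.97 TPM, Igkv3-1 at 0.96 TPM and Igkv1-122 at 0.91 TPM. Of the members, 70 reached 1 TPM in at least 3 controls and in all 3 treated libraries, 23 in at least 3 controls but not in every treated library, and 9 in all 3 treated libraries but in at most 2 controls. The other 27 passed only by counting libraries of both groups.

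The germline ends of the segments that lead the results are printed below, because this is where a V segment meets its J or D partner. Each runs 5′ to 3′ from the GENCODE M21 transcript, and the capitals mark the codon of the conserved cysteine that precedes the junction.
Ighv1-19: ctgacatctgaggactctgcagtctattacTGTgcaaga
Ighv1-34: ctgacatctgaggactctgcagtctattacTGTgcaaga
Ighv1-55: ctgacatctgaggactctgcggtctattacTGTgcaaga
Ighv11-2: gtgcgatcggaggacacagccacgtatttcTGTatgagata
Ighv12-3: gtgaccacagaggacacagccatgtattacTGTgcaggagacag
Igkv12-44: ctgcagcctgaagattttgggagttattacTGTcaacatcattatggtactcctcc
Igkv6-23: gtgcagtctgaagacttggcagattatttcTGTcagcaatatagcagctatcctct
Igkv14-126: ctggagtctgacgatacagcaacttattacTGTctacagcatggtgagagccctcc
Iglv1: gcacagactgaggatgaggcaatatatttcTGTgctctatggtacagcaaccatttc
The printed heavy-chain segments carry 9 to 14 bases from the cysteine codon to the end, and the light-chain segments 26 or 27, since the light-chain junction has no D segment. Ighv1-19 and Ighv1-34 are identical over the printed stretch.

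Many members differ from another segment at few positions. Over the last 270 bases the median identity to the nearest other segment was 95.6%, and 75 of the 129 members were at least 95% identical to one, 39 Ighv, 34 Igkv and 2 Iglv. A median of 24.3% of a member's 50-base windows was found exactly in another segment, and 22 members shared none. The pairs below are shown over their last 150 bases, with capitals at the bases that differ, because both touch results given later.
Iglv1: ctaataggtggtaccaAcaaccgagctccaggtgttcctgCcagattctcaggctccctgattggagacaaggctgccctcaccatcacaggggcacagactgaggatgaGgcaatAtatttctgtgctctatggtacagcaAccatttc
Iglv2: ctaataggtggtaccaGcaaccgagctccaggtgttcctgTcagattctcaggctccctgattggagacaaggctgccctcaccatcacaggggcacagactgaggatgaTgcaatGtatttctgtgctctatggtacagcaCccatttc
Ighv1-26: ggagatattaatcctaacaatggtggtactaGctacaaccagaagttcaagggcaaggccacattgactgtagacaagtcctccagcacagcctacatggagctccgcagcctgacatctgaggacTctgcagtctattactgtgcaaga
Ighv1-18: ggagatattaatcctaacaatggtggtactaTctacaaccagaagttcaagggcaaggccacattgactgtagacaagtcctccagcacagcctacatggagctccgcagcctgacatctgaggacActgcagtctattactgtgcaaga
The lambda pair differs at 5 of these bases and the heavy-chain pair at 2. The sources used here do not give how reads shared by such segments were divided, so values of single segments with a near-identical partner are uncertain.

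The 7 libraries differed in cell makeup by their marker genes. All 13 T cell markers tested rose in the treated libraries (limma, Benjamini-Hochberg adjusted p under 0.05), and their summed level ran from 143.6 to 247.8 TPM in controls and from 686.4 to 2911 TPM in treated libraries. Cd8a, which encodes CD8 alpha, stood at 14.1 ± 4.31 TPM (SD, n = 4) in controls and Apoe, abundant in macrophages, at 5056 ± 2280 TPM (SD, n = 4), so that the defining markers of the labelled cell type were low in the controls. Macrophage markers summed to 6112 to 14810 TPM in controls and 3318 to 4047 TPM in treated libraries, with control 3 the highest, and 2 of the 10, Apoe and Fcgr1, were called, both lower. Markers of mesothelium and epithelium summed to 2154 to 2674 TPM in controls and 817 to 1536 TPM in treated libraries, with 6 of 8 called lower. Fibroblast markers (281.5 to 321.6 TPM and 114.7 to 226.7 TPM, 4 of 5 called lower) and erythroid markers (95.1 to 502.6 TPM and 24.5 to 84.4 TPM, 4 of 4 called lower) likewise did not overlap between the groups. The part of these differences in the segment levels was not tested. Mitochondrially encoded genes held 32.9% of TPM in the third treated library and 13.6% to 18.2% in the others. In such bulk samples, fewer cells of a type and less RNA per cell cannot be told apart.

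Transcripts of antibody V segments were present in every library. The 129 segments together held between 0.0336% and 0.128% of all TPM, and their summed level was 795.5, 335.5, 1277 and 917.4 TPM in controls 1 to 4 and 818, 1222 and 748.4 TPM in treated 1, treated 2 and the third treated library. Control 2 was the lowest and control 3 the highest, with all treated libraries in between. This sum exceeded that of the T cell markers in every control and in the third treated library, and was below it in treated 1 and treated 2. The mean was 831.4 ± 388.7 TPM in controls (SD, n = 4) and 929.5 ± 255.7 TPM in treated libraries (SD, n = 3). Heavy-chain segments summed to 304, 121.9, 434.6 and 303.6 TPM in controls and 269, 453.1 and 279.2 TPM in treated libraries, a ratio of group means of 1.15. Kappa segments summed to 460.8, 170.7, 683.2 and 504.5 TPM in controls and 509.4, 686.8 and 410.3 TPM in treated libraries, a ratio of 1.18. Both classes followed the same order at the extremes, lowest in control 2 and highest in treated 2 with control 3 next, and the groups overlapped. Leaving out single libraries moved the heavy-chain ratio between 0.942 and 1.37 and the kappa ratio between 0.974 and 1.41, so neither ratio kept its side of 1.

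The 15 B cell markers, led by Cd37, Cd79a and Cd79b, summed to 106, 70.9, 208.8 and 180.9 TPM in controls and 162, 246.3 and 184.7 TPM in treated libraries, with the same lowest library and the same highest pair as the heavy and kappa segments. Of the 14 that were tested, only Cd37, a tetraspanin of B cells and other leukocytes, was called, and it was higher in treated libraries (log2 fold change 1.09, SE 0.30, adjusted p = 0.0314, limma with Benjamini-Hochberg adjustment). Per TPM of B cell markers there were 1.68 to 2.87 TPM of Ighv in controls and 1.51 to 1.84 TPM in treated libraries. For Igkv the same measure was 2.41 to 4.35 in controls and 2.22 to 3.14 in treated libraries, highest in control 1 in both classes. Cd37 had the highest mean of the markers in each group, at 29.4 ± 12.12 TPM (SD, n = 4) in controls. In treated libraries it was 62.99 ± 25.05 TPM (SD, n = 3). A rise of Cd37 lowers both measures, and its part in them was not tested. The 13 plasma cell markers summed to 258.7 to 318.2 TPM in controls and 178.7 to 293.8 TPM in treated libraries. Xbp1 led this sum, at 152.3 ± 17.19 TPM (SD, n = 4) in controls and 95.9 ± 15.14 TPM (SD, n = 3) in treated libraries. The sum is therefore no measure of plasma cells alone. Jchain, which links IgM and IgA into polymers, stood at 10.3 to 28.4 TPM in controls and 14.0 to 27.3 TPM in treated libraries, with no call. Of the 11 plasma cell markers tested, Sdc1 and Xbp1, which epithelial or other secretory cells also express, fell (adjusted p = 0.00482 and 0.0384), and Prdm1, which T cells also express, rose (adjusted p = 0.0179, limma with Benjamini-Hochberg adjustment). The part of B cell or plasma cell number in the segment levels was not tested.

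**Figure D1:**
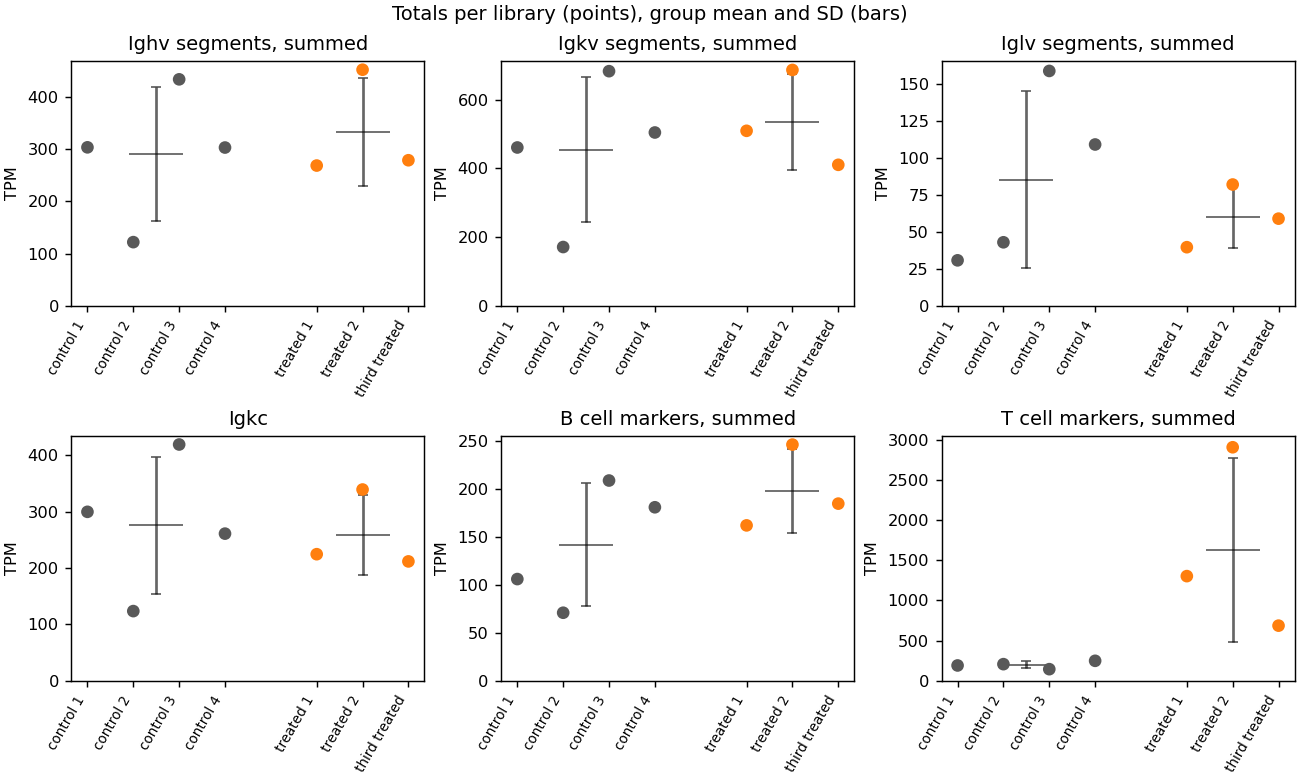
Summed TPM of the heavy, kappa and lambda variable segments, of Igkc and of the B cell and T cell marker lists in each library (points; grey control, orange treated), with the group mean and SD as bars. The segment totals of the groups overlap, from 121.9 to 453.1 TPM for Ighv, whereas the T cell marker sums do not.

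The constant regions, which are spliced to the rearranged V segment in the mature transcript, gave a second measure of the same chains. Summed heavy-chain constant genes stood at 97.5 to 320.5 TPM in controls and 204.1 to 343.1 TPM in treated libraries. The ratio of Ighv to heavy constant TPM was 1.40, 1.25, 1.36 and 1.35 in controls and 1.16, 1.32 and 1.37 in treated libraries, a narrow band in which the groups overlapped. Igkc, the single kappa constant gene, was 299.7, 123.5, 419.2 and 261 TPM in controls and 224.5, 339.3 and 211.7 TPM in treated libraries. The ratio of Igkv to Igkc was 1.54, 1.38, 1.63 and 1.93 in controls and 2.27, 2.02 and 1.94 in treated libraries. Here the groups lay just apart, with 1.933 in control 4 beside 1.938 in the third treated library. Of the 13 constant and J chain genes listed, 12 were tested and limma called 0 in either direction, with 2, Ighg2c and Ighg3, at an unadjusted p under 0.05. Their median log2 fold change was 0.12, beside -0.24 over all genes tested. Ighe, the IgE constant gene, and all 14 joining segments in the table were listed at 0 in every library.

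Among the heavy-chain constants, Ighm, which encodes IgM, held 38.8%, 63.2%, 58.3% and 60.3% in controls and 61.3%, 63.6% and 57.4% in treated libraries. Igha, the constant of IgA, held 36.7% in control 1, 17.8% to 20.7% in the other controls, and 16.2%, 6.51% and 16.9% in the treated libraries. Control 1 stood apart in both shares, and the Igha shares of the groups did not overlap. Igha itself did not pass the test (log2 fold change -0.56, SE 0.35, adjusted p = 0.293, limma with Benjamini-Hochberg adjustment).

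Segment levels differed between libraries. Of the 129, 55 reached 1 TPM in all 7 libraries, and 54 were at 0 in at least 1 library, 29 of them in control 2. For the 75 members with no 0, the highest library was a median of 9.36-fold above the lowest. The mean level over the libraries ran from 0.739 TPM to 53.75 TPM, with a median of 4.37 TPM. Within groups, the SD of log2(TPM + 1) had a median of 0.94 over the members and 0.27 over all 14967 tested genes, and 126 of the 129 members lay above the latter. The gap was also seen at a like level, between 1.97 and 8.04 TPM, the middle range of the members. There 65 members had a median SD of 1.05 and 3708 other genes 0.30. TPM is corrected for transcript length, so a like TPM is not a like number of reads. The part of read numbers in this gap was not tested. The limma fit used below draws the variance of each gene toward that of all genes of like level. SEs and p-values of the more variable segments can therefore be too small.

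**Figure D2:**
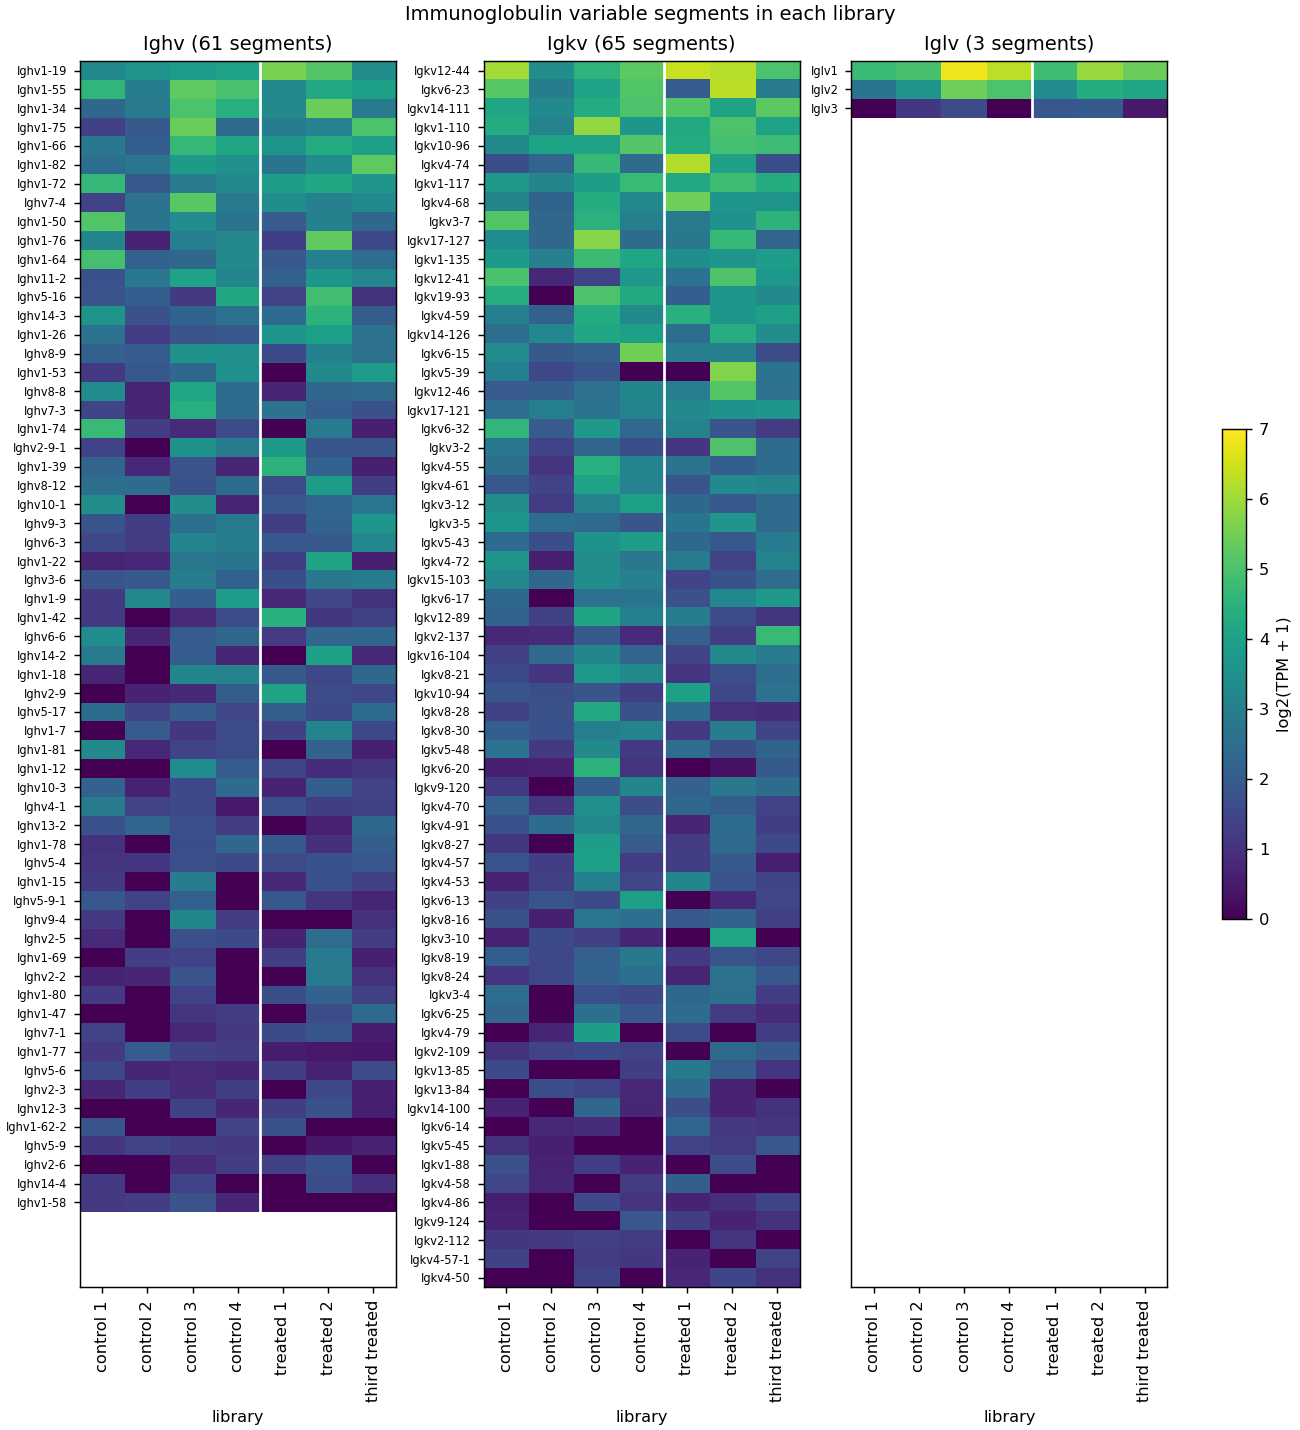
Level of each of the 129 segments, as log2(TPM + 1), in the 4 control and 3 treated libraries, ordered by mean level within each class. Single bright cells in rows that are otherwise dark, such as Ighv1-50 in control 1 (33.3 TPM) or Igkv4-74 in treated 1 (72.3 TPM), show segments high in 1 library.

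Each library had its own leading segments. The most abundant heavy-chain segment was Ighv1-50 in control 1 with 10.96% of the Ighv total, Ighv1-19 in control 2 with 9.25%, Ighv1-75 in control 3 with 9.60% and Ighv1-55 in control 4 with 10.2%. In the treated libraries it was Ighv1-19 with 17.6%, Ighv1-34 with 9.27% and Ighv1-82 with 13.3%. All of these belong to the Ighv1 family, the largest of the mouse. Ighv1-19 was the leading heavy-chain segment in a control and in a treated library, and no other segment led in more than 1. Among kappa segments, Igkv12-44 led in control 1 with 13.9% and in treated 1 with 16.5%. The other leaders were Igkv10-96 with 9.18%, Igkv1-110 with 8.31% and Igkv6-15 with 8.65% in controls 2 to 4, Igkv6-23 with 11.2% in treated 2 and Igkv14-111 with 9.01% in the third treated library. Across the libraries, 32 Ighv segments entered a top 10 and only Ighv1-19 was in all 7, and 29 Igkv segments entered a top 10 and only Igkv12-44 was in all 7.

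The 5 leading heavy-chain segments of each library held 44.9%, 31.8%, 39.0% and 33.2% of the Ighv total in controls and 44.5%, 36.1% and 39.7% in treated libraries. The means were 37.2 ± 5.96% (SD, n = 4) and 40.1 ± 4.22% (SD, n = 3), a difference of 2.90 percentage points that is smaller than either SD. The 5 leading kappa segments held 40.6%, 30.1%, 28.1% and 35.5% of the Igkv total in controls and 49.8%, 38.9% and 34.9% in treated libraries. Their means were 33.6 ± 5.63% (SD, n = 4) and 41.2 ± 7.71% (SD, n = 3), a difference of 7.59 percentage points about as large as the spread, and the groups overlapped. Treated 1 held the highest kappa share, and without it the difference was 3.29 percentage points. Without treated 1 the heavy-chain difference was 0.682 percentage points. Leaving out control 2 gave 1.09 and control 4 gave 1.56, whereas leaving out control 1 gave 5.44 and treated 2 gave 4.88 (or 3.49 and 3.12 for control 3 and the third treated library).

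The effective number of segments, the inverse of the summed squared shares, counts how many equally used segments would give the same evenness. For Ighv it was 19.3, 25.7, 22.7 and 26.1 in controls and 15.9, 24.2 and 19.7 in treated libraries. For Igkv it was 20.1, 28.3, 31.1 and 25.5 in controls and 14.5, 20.5 and 25.5 in treated libraries. Treated 1 was the least even library in both classes and control 1 was the least even control in both. These shares and numbers are scores over chosen members and were not tested.

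**Figure D3:**
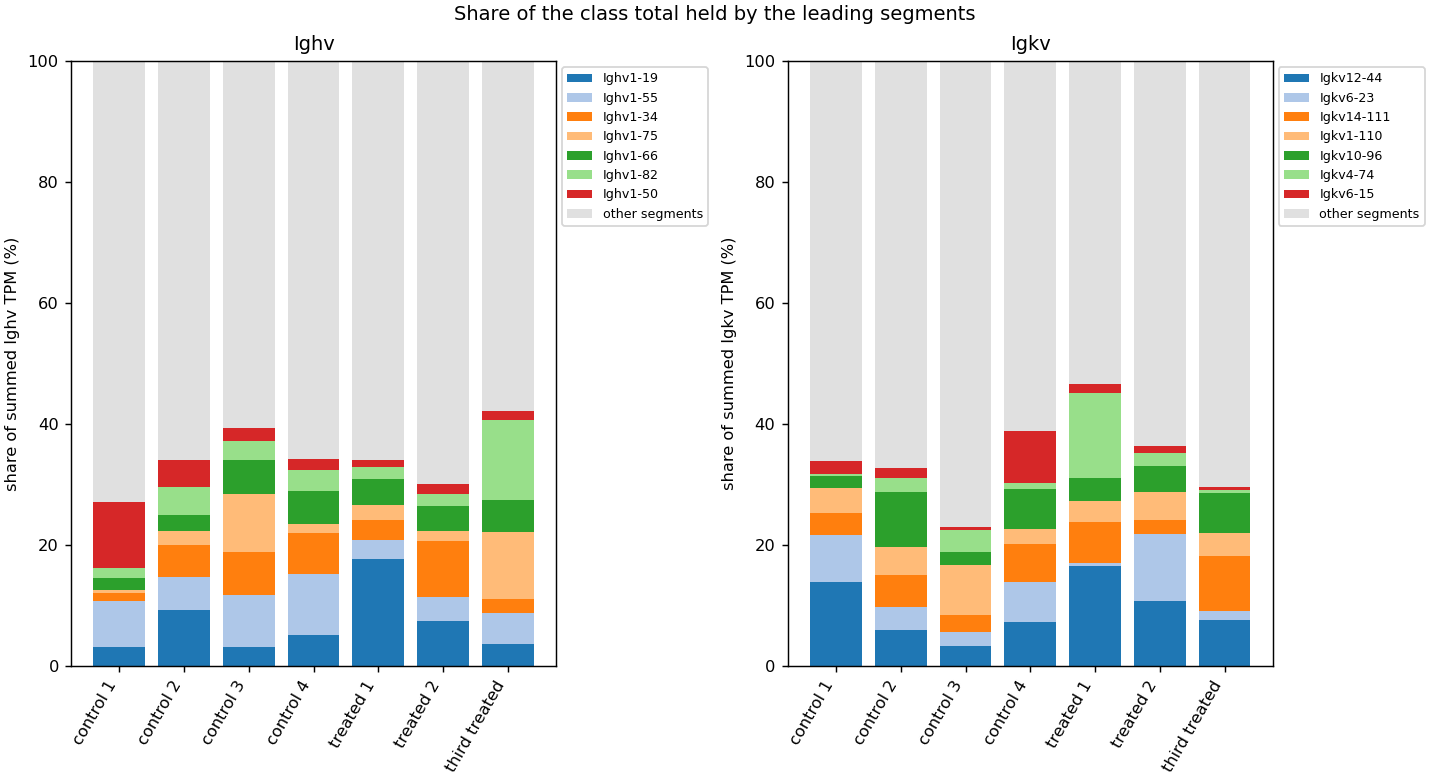
Share of the summed Ighv TPM (left) and Igkv TPM (right) held by the leading segments in each library, with all other segments in light grey. Ighv1-19 widens to 17.6% in treated 1, Ighv1-50 to 10.96% in control 1 and Igkv6-15 to 8.65% in control 4.

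Likeness in segment use spanned similar ranges within and between the groups. The Spearman correlation of the 129 levels between pairs of libraries ran from 0.475 to 0.604 within controls (6 pairs, median 0.524), from 0.387 to 0.565 within treated (3 pairs, median 0.52) and from 0.393 to 0.666 between the groups (12 pairs, median 0.518). These correlations are across segments, which are not independent, and describe the libraries only. In kappa segments the 10 leading ones of a pair of libraries shared a median of 5.5 within controls, 4 within treated and 5 between the groups. In heavy-chain segments the median was 4 in each kind of pair.

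The heavy-chain members fall into 14 families by the first number of their names. The Ighv1 family, with 29 members, held 66.4%, 60.6%, 56.6% and 62.9% of the Ighv total in controls and 67.9%, 62.1% and 63.7% in treated libraries. It was by far the largest in every library and its group means, 61.6 ± 4.13% (SD, n = 4) and 64.6 ± 3.004% (SD, n = 3), differed by less than the control SD. Smaller families had high shares in single libraries of either group. Ighv7 reached 12.9% in control 3 beside 1.70% to 6.34% elsewhere, Ighv2 reached 11.4% in treated 1 beside 1.23% to 4.78%, and Ighv14 reached 8.68% in treated 2 and 6.21% in control 1. Of the 14 families, Ighv8, with 3 members, was the only family whose groups did not overlap. It held 5.87%, 6.90%, 6.78% and 6.52% in controls and 1.76%, 5.49% and 3.92% in treated libraries. None of its members was called by limma after Benjamini-Hochberg adjustment. For TPM of single genes, every treated library lay below every control in 25.7% of all tested and in 3.1% of the 129 members. These rates are not of shares of a class total, so they are no like measure for a family. Ighv8 was picked out of the 14 by its separation, which is a description only.

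The 16 kappa families were more even. Igkv4, with 15 members, held 10.9%, 14.3%, 24.6% and 11.2% of the Igkv total in controls and 33.7%, 10.1% and 14.6% in treated libraries. Its high value in treated 1 came with Igkv4-74 at 72.28 TPM in that library. Igkv12, with 4 members, held 22.03%, 9.24%, 6.64% and 12.8% in controls and 20.2%, 20.7% and 12.2% in treated libraries. Igkv6, with 8 members, held 17.0%, 9.64%, 9.78% and 20.8% in controls and 5.58%, 14.5% and 7.14% in treated libraries. All 3 of these families overlapped between the groups. The only kappa family without overlap was Igkv15, which has a single member described with the called segments.

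Position in the locus also varied by library. The functional segments of each locus were divided into 3 runs of nearly equal size by their order from the joining segments in GRCm38, with 37 or 38 segments a run for Ighv and 33 or 34 for Igkv. The run farthest from the joining segments, which includes the later-numbered Ighv1 segments, held 63.3%, 41.2%, 43.5% and 44.9% of the Ighv total in controls and 24.98%, 39.3% and 54.0% in treated libraries. The middle run, which holds Ighv1-19, reached 48.8% in treated 1 beside 19.3% to 33.9% in the other libraries. For Igkv the middle run reached 57.9% in treated 1 beside 24.8% to 35.6% elsewhere. In the kappa locus, segments lying on the strand opposite to the joining segments recombine by inversion rather than deletion. The 42 members on that strand held 63.1%, 53.3%, 59.7% and 65.3% of the Igkv total in controls and 71.5%, 62.8% and 49.5% in treated libraries, and the groups overlapped.

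The comparison between the groups asked how transcripts differed after propionate and butyrate. It was made with limma on log2(TPM + 1) over 14967 genes, where a gene is called at a Benjamini-Hochberg adjusted p under 0.05 and fold changes understate those of low genes. Of the 129 segments, 6 were called, or 4.65%, beside 11.9% of all genes tested. They were 2 higher in treated libraries (1.55%, beside 4.3% of all genes) and 4 lower (3.1%, beside 7.59%). Which of the total shares was larger turned in some settings, such as without control 3 (14% of the segments beside 9.91% of all genes). By class, 1 Ighv was higher and 3 were lower, and 1 Igkv was higher and 1 was lower. Of the 3 Iglv, 0 were called and 0 had an unadjusted p under 0.05. Over all members, 25 had an unadjusted p under 0.05 in limma. This count depended on the settings, at 12 with robust variance estimation, 11 with no filter on low values and 47 without control 3. The share of all genes at that unadjusted p was not computed, so these counts are not read as an excess or a lack. Of the called segments, Ighv1-58, Ighv1-77 and Ighv5-9 met the rule through the controls alone, with 0 treated libraries at 1 TPM, and Igkv5-45 through the 3 treated libraries with 1 control. These 4 were thus selected by the group in which they are high, and their calls are no independent evidence of a difference. The log2 fold changes ran from -1.49 to 1.60 with a median of 0.17, and 73 were above 0. The median over all genes tested was -0.24. With median-of-ratios scaling the median over all genes was -0.02, that of the members was 0.36, and 55.4% of all called genes were higher in treated libraries beside 36.1% with TPM as deposited. Under that scaling 5 segments were higher and 2 lower (5.43%, beside 14.9% of all genes).

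Every treated library lay above every control in 4 segments, or 3.1%, beside 4.82% of all genes, and below every control in 4, or 3.1%, beside 25.7%. The former were Ighv1-26, Igkv17-121, Igkv5-45 and Igkv6-14 and the latter Ighv1-58, Ighv1-77, Ighv5-9 and Igkv2-112. Igkv17-121, Igkv6-14 and Igkv2-112, picked out after their values were seen, did not pass the test. Igkv6-14 met the rule through the 3 treated libraries alone, and Igkv2-112 through the 4 controls with 1 treated library. As with Igkv5-45, Ighv1-58, Ighv1-77 and Ighv5-9 above, the group in which they are high thus selected them. The counts of segments without overlap are therefore no independent evidence of a difference.

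**Figure D4:**
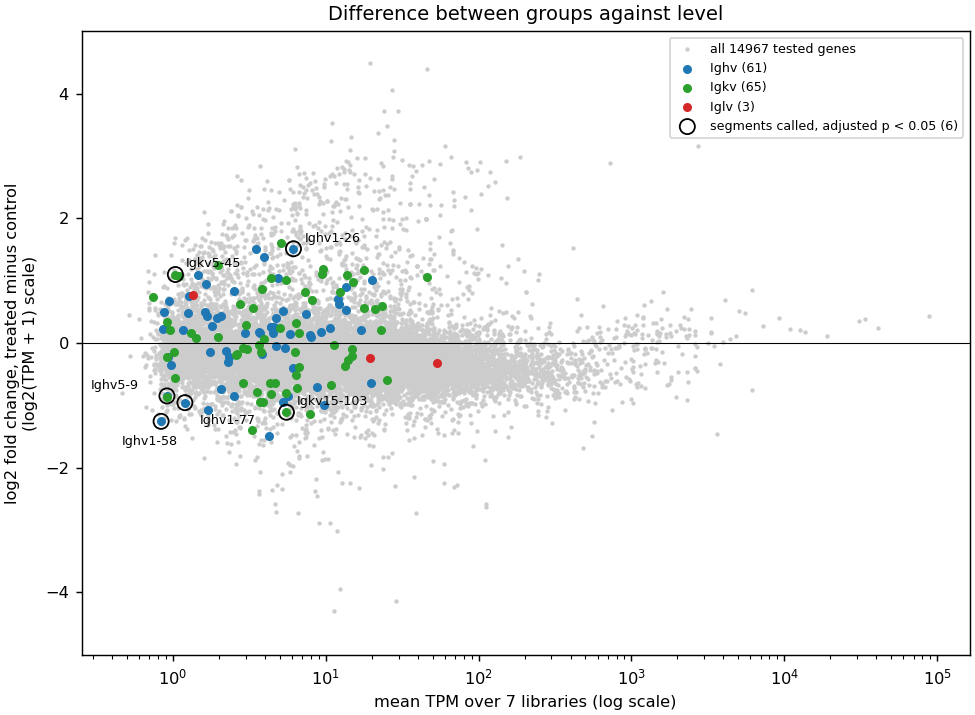
Log2 fold change of treated minus control libraries, on the log2(TPM + 1) scale, against mean TPM over the 7 libraries (log axis), for all 14967 tested genes (grey) and the variable segments by class (colours). The segments scatter to both sides of 0, from -1.49 to 1.60, and the 6 called segments are circled.

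Ighv1-26 had the highest mean level among the called segments, 6.16 TPM over the 7 libraries, with Igkv15-103 next at 5.54 TPM. Ighv1-26 stood at 5.12, 1.41, 2.48 and 2.80 TPM in controls and 11.78, 14.35 and 5.17 TPM in treated libraries, means of 2.95 ± 1.56 (SD, n = 4) and 10.4 ± 4.74 TPM (SD, n = 3). The groups touched without overlap, 5.12 TPM in control 1 beside 5.17 TPM in the third treated library. The log2 fold change was 1.51 (SE 0.34, adjusted p = 0.0115, limma with Benjamini-Hochberg adjustment). It was called under 14 of 16 alternatives, with adjusted p from 0.000626 to 0.117, and missed the threshold without treated 1 (0.0502) and with no filter on low values (0.117). Its near-identical partner Ighv1-18, whose last 150 bases are printed with it, stood at 0.64, 0, 8.26 and 7.69 TPM in controls and 2.95, 1.79 and 4.14 TPM in treated libraries, with no such separation. Ighv1-26 is also the nearest segment of the more abundant Ighv1-19, at 96.3% identity. Ighv1-19 was likewise high in treated 1 and treated 2, at 47.41 and 33.73 TPM, and 9.96 TPM in the third treated library. The part of shared reads in the call of Ighv1-26 was not tested.

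Igkv5-45 was the other segment called higher, at low levels. It stood at 1.05 and 0.52 TPM in controls 1 and 2, was listed at 0 in controls 3 and 4, and reached 1.64, 1.34 and 2.73 TPM in treated libraries. The log2 fold change was 1.10 (SE 0.29, adjusted p = 0.0274, limma with Benjamini-Hochberg adjustment). It was called under 9 of 15 alternatives, with adjusted p from 0.00483 to 0.465, and lost the call without control 4 (0.0531) or the third treated library (0.125). Igkv5-43, which is 98.9% identical to it over the last 270 bases, stood higher in both groups, at 2.18 to 14.2 TPM in controls and 2.81 to 6.53 TPM in treated libraries.

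Ighv1-58 was the lower segment with the smallest p. It stood at 1.28, 1.41, 2.48 and 0.70 TPM in controls and was listed at 0 in all 3 treated libraries (adjusted p = 0.00724, limma with Benjamini-Hochberg adjustment), so no fold is given. The call held under 12 of 15 alternatives, with adjusted p from 0.00093 to 0.127, and was lost without control 3 and the third treated library together (0.0627). Its lowest control value, 0.70 TPM, lay among the lowest values above 0 of the Ighv members, which ran from 0.34 to 0.73 TPM by library. Ighv1-42 had the same 1.28 TPM in control 1, and Ighv1-26 the same 1.41 and 2.48 TPM in controls 2 and 3. Low values that recur in this way may stand for few reads, which was not tested.

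Ighv1-77 stood at 1.23, 3.09, 1.54 and 1.34 TPM in controls and 0.47, 0.39 and 0.34 TPM in treated libraries. The groups did not overlap, and the log2 fold change was -0.96 (SE 0.26, adjusted p = 0.0274, limma with Benjamini-Hochberg adjustment). The call held under 9 of 15 alternatives, with adjusted p from 0.0107 to 0.186. It was lost without control 2 (0.0687), treated 2 (0.0603) or the third treated library (0.0799).

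Igkv15-103 was the most abundant segment called lower, at 8.80, 3.95, 9.85 and 7.33 TPM in controls and 1.78, 2.42 and 4.63 TPM in treated libraries. The third treated library lay above control 2, so the groups overlapped. The log2 fold change was -1.11 (SE 0.30, adjusted p = 0.0307, limma with Benjamini-Hochberg adjustment). Of 16 alternatives, 8 kept the call, with adjusted p from 0.00387 to 0.152. It was lost without control 1 (0.0503), treated 1 (0.0909) or treated 2 (0.0554). It is one of the more distinct segments, 78.2% identical to its nearest neighbour in sequence.

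Ighv5-9 stood at 1.14, 1.63, 1.41 and 1.24 TPM in controls and 0, 0.36 and 0.63 TPM in treated libraries, without overlap. The log2 fold change was -0.85 (SE 0.24, adjusted p = 0.0359, limma with Benjamini-Hochberg adjustment). Only 3 of 15 alternatives kept the call, with adjusted p from 0.0223 to 0.185. It was lost on leaving out any single control (0.0562 to 0.072), treated 1 (0.0594) or treated 2 (0.0752).

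**Figure D5:**
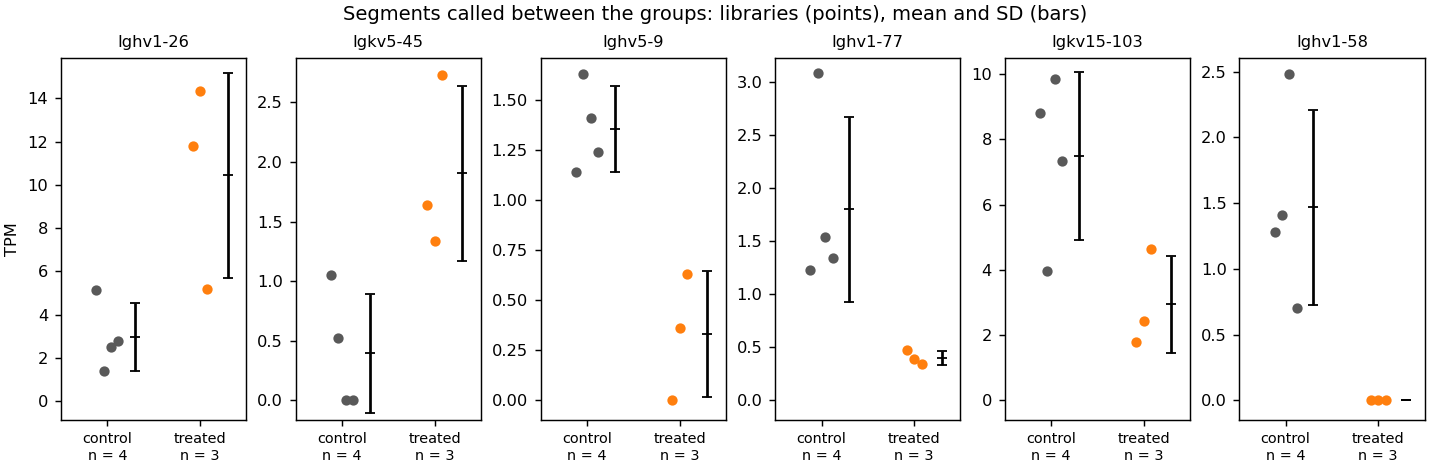
TPM of the 6 called segments in each control and treated library (points), with group mean and SD (bars), each panel with its own axis. Ighv1-26 and Igkv15-103 exceed 5 TPM, and the other 4 stay at or below 3.09 TPM in every library.

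The most abundant heavy-chain segments overlapped between the groups and were not called. Ighv1-19, the leading segment by mean, stood at 9.23, 11.27, 13.59 and 15.23 TPM in controls and 47.41, 33.73 and 9.96 TPM in treated libraries. It was high in treated 1 and treated 2, and the third treated library lay within the controls. Its log2 fold change was 1.01 (SE 0.38, adjusted p = 0.0942, limma with Benjamini-Hochberg adjustment), and 1.64 without the third treated library (0.00814), one of 5 of 16 alternatives that called it, with adjusted p from 0.00814 to 0.321. Ighv1-55 went the other way in value, at 23.31, 6.64, 37.16 and 31.05 TPM in controls and 8.46, 17.57 and 14.42 TPM in treated libraries. Control 2 was below all 3 treated libraries and the other controls above them, and the log2 fold change was -0.65 (SE 0.43, adjusted p = 0.317, limma). Without control 2 it was -1.15 (adjusted p = 0.011), the only 1 of 16 alternatives to call it (0.011 to 0.976).

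Ighv1-34 stood at 4.05, 6.40, 31.23 and 20.47 TPM in controls and 9.12, 42.0 and 6.36 TPM in treated libraries. Ighv1-75 stood at 1.58, 2.87, 41.74 and 4.21 TPM in controls and 6.64, 7.53 and 31.22 TPM in treated libraries. Ighv1-34 was high in controls 3 and 4 and in treated 2, and Ighv1-75 in control 3 and the third treated library. For Ighv1-75 the log2 fold change of 0.90 became 1.78 without control 3 (limma, adjusted p = 0.0015, the lowest of a range to 0.895). Ighv1-66 stood at 3.25 to 24.39 TPM in controls and 11.40 to 18.87 TPM in treated libraries, a range that lies inside that of the controls. Ighv1-82 reached 37.17 TPM in the third treated library beside 4.74 to 13.16 TPM in the other 6. Ighv1-50 reached 33.32 TPM in control 1 beside 3 to 9.31 TPM in the other 6.

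Some less abundant heavy-chain segments had large fold changes that rested on 1 library. Ighv2-9 stood at 0, 0.63, 0.74 and 3.15 TPM in controls and 15.94, 2.04 and 1.87 TPM in treated libraries (log2 fold change 1.51, SE 0.55). Ighv1-42 stood at 1.28, 0, 0.83 and 2.10 TPM in controls and 20.62, 1.20 and 1.55 TPM in treated libraries (log2 fold change 1.38, SE 0.61). Both were high in treated 1 alone, and neither passed the test (adjusted p = 0.0842 and 0.143, limma with Benjamini-Hochberg adjustment). Ighv1-9 had the lowest log2 fold change of all members, -1.49 (SE 0.47, adjusted p = 0.0520, limma), with 1.28, 8.48, 3.30 and 13.28 TPM in controls and 0.74, 1.79 and 1.03 TPM in treated libraries. Here controls 2, 3 and 4 lay above the treated group and control 1 within it. Without control 1 its adjusted p was the lowest of 15 alternatives, 0.00039, in a range to 0.232.

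Among kappa segments, Igkv12-44 had the highest mean level. It stood at 64.23, 10.08, 22.32 and 36.62 TPM in controls and 83.88, 73.07 and 31.14 TPM in treated libraries. Its log2 fold change was 1.06 (SE 0.47, adjusted p = 0.143, limma with Benjamini-Hochberg adjustment). Controls 1 and 4 reached the range of the treated group, and without control 1 the adjusted p was 0.00896, the only call in 16 alternatives (0.00896 to 0.394). Igkv6-23 stood at 35.58, 6.62, 15.60 and 33.06 TPM in controls and 3.12, 77.10 and 6.25 TPM in treated libraries, so that treated 2 held its highest value and the other treated libraries its lowest. Its log2 fold change of -0.59 (SE 0.76) was -1.87 without treated 2 (limma, adjusted p = 0.00634, in a range to 0.973).

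Igkv14-111 and Igkv10-96, each the leader of 1 library, were present at 8.91 TPM or more in all 7. Igkv14-111 stood at 16.46, 9, 18.90 and 32.32 TPM in controls and 34.02, 15.38 and 36.97 TPM in treated libraries. Igkv10-96 stood at 8.91, 15.67, 15.25 and 33.71 TPM in controls and 18.82, 28.85 and 27.05 TPM in treated libraries. Neither was called (log2 fold changes of 0.60 and 0.55, both with adjusted p = 0.271, limma with Benjamini-Hochberg adjustment). Igkv1-110 was 56.77 TPM in control 3 and 7.79 to 32.28 TPM in the other 6 libraries.

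Igkv4-74 stood at 2.19, 3.86, 24.95 and 4.54 TPM in controls and 72.28, 15.04 and 2.19 TPM in treated libraries. The same value, 2.19 TPM, was thus its lowest in each group, and the log2 fold change of 1.18 had an SE of 0.81. Igkv6-15 was 43.63 TPM in control 4 beside 2.15 to 9.32 TPM in the other 6, and Igkv2-137 was 25.77 TPM in the third treated library beside 0.74 to 3.42 TPM. Igkv2-137 had the highest log2 fold change of all members, 1.60 (SE 0.59, adjusted p = 0.0874, limma with Benjamini-Hochberg adjustment). Igkv6-13 was 14.41 TPM in control 4 beside 0 to 2.52 TPM elsewhere, and Igkv6-32 was 23.45 TPM in control 1 and 12.83 TPM in control 3 beside 1.36 to 7.69 TPM elsewhere. The highest value of these 5 kappa segments thus lay in treated 1, in control 4 for 2 of them, in the third treated library and in control 1.

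The lambda locus carries few V segments, and the 3 in the table all met the rule. Iglv1 stood at 25.13, 30.15, 114.31 and 77.67 TPM in controls and 27.25, 59.88 and 41.83 TPM in treated libraries, with the highest mean level of all 129 members. Iglv2 stood at 5.58, 11.61, 42.78 and 31.66 TPM in controls and 9.61, 19.30 and 16.76 TPM in treated libraries. Both were highest in controls 3 and 4 and lowest in control 1, with the treated libraries inside that range. Their log2 fold changes were -0.31 (SE 0.43, adjusted p = 0.639) and -0.25 (SE 0.49, adjusted p = 0.758, limma with Benjamini-Hochberg adjustment), and both turned above 0 without control 3, at 0.07 and 0.17. The order of lambda totals differed from that of the heavy and kappa totals, since control 1 was lowest here and control 2 there.

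Iglv1 held 81.8%, 70.2%, 71.8% and 71.0% of the lambda total in controls and 68.8%, 72.9% and 70.9% in treated libraries. Outside control 1 the ratio of Iglv1 to Iglv2 kept between 2.45 and 3.10, and in control 1 it was 4.50. The division of reads shared by these near-identical segments is not known. Iglv3 was low, at 0, 1.19, 2.11 and 0 TPM in controls and 2.76, 2.96 and 0.40 TPM in treated libraries. Lambda segments made up 6.25%, 20.1%, 18.9% and 17.8% of light-chain V TPM in controls and 7.22%, 10.7% and 12.6% in treated libraries. The summed lambda segments had a ratio of group means of 0.704, and 0.988 without control 3.

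Segments known from peritoneal B-1 cells were present. Ighv11-2 and Igkv14-126 form an antibody to phosphatidylcholine that B-1a cells of the peritoneum express repeatedly, and their germline ends are printed above. Ighv11-2 stood at 2.38, 5.98, 15.59 and 8.12 TPM in controls and 3.43, 12.10 and 8.68 TPM in treated libraries, and Igkv14-126 at 4.80, 8.57, 16.94 and 14.39 TPM in controls and 4.82, 19.60 and 9.70 TPM in treated libraries. Both were lowest in control 1 and treated 1 and highest in control 3 and treated 2, the libraries with the highest B cell marker sums. Ighv11-2 held 4.91% of the Ighv total in control 2 and 0.783% to 3.59% elsewhere, and Igkv14-126 held 5.02% of the Igkv total in control 2 and 0.946% to 2.85% elsewhere. Control 2, the library with the lowest segment totals, thus had the highest share of each. Their means barely differed between the groups, 8.02 ± 5.58 TPM (SD, n = 4) and 8.07 ± 4.37 TPM (SD, n = 3) for Ighv11-2.

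The second such pair is Ighv12-3 with Igkv4-91. Ighv12-3 stood at 0, 0, 1.62 and 0.69 TPM in controls and 1.44, 2.35 and 0.51 TPM in treated libraries, and Igkv4-91 at 2.40, 4.61, 8.47 and 3.93 TPM in controls and 0.69, 4.48 and 1.46 TPM in treated libraries. Ighv7-1, the heavy-chain segment of the classical antibody to phosphorylcholine, stood at 0 to 1.72 TPM in controls and 0.46 to 2.68 TPM in treated libraries. Its light-chain partner Igkv7-33 was not tested, being above 0 only in control 1, at 0.56 TPM. Of the 5 segments of this list that were tested, limma called 0, with 1, Igkv4-91, at an unadjusted p under 0.05. Their median log2 fold change was 0.09, beside -0.24 over all genes tested.

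Genes of V(D)J recombination were near 0, whereas the octamer factors, which drive immunoglobulin promoters, were present in every library. Rag1 and Rag2, the recombinase that joins V, D and J segments, did not exceed 0.02 TPM in any library, and Igll1, part of the surrogate light chain of developing B cells, did not exceed 0.03 TPM. Dntt, which adds bases at the junction, reached 0.41 TPM. Of the list of recombination, switch and surrogate light chain genes, 3 were tested, Ung, Polh and Vpreb3, and limma called 0, with 0 at an unadjusted p under 0.05. Pou2af1, the B cell coactivator of octamer-driven immunoglobulin promoters, stood at 6.86, 4.05, 11.98 and 10.89 TPM in controls and 9.44, 15.31 and 10.78 TPM in treated libraries. Like the heavy and kappa totals it was lowest in control 2 and highest in treated 2 with control 3 next. Of Pou2f1, Pou2f2 and Pou2af1 limma called 0, with 0 at an unadjusted p under 0.05, and their median log2 fold change was 0.51.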

How the data were processed

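Polyadenylated RNA of 7 libraries was sequenced after TRIzol extraction and stranded library preparation, per the labels' protocols. The authors deposited 1 table of TPM values for 149132 transcripts with gene symbols. The build mm39 and the tools StringTie, HISAT2 and fastp are named, without versions, per the submitters' processing notes. The sources used here do not give the program that made the TPM. TPM keeps no depth, so depth was unknown and no counting intervals were computed. Low values recur exactly between segments of a library, such as 1.28 TPM in control 1, so they may stand for few reads. The number of reads behind a value was not derived.

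Columns were matched to samples by name, 1 of them only to the treated group, and 0 columns were left unused. TPM was summed per symbol. Rows without a symbol (1001, holding 0.307% to 0.618% of TPM) were dropped. Genes reaching 1 TPM in 3 or more libraries were compared on log2(TPM + 1) with limma 3.58.1 in R 4.3.3, with an intensity trend and Benjamini-Hochberg adjustment over 14967 genes, and called at an adjusted p under 0.05. The script was tested on simulated data. Sums and shares were not tested.

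The members and gene lists were chosen with earlier results of these data known. Segments named are the 6 of highest mean in Ighv and in Igkv, all Iglv, the leader of each library, the called segments, the 4 largest rises and falls, and the listed genes. Of the listed genes, 1 is not reported here. Those chosen after their values were seen are marked, as are near-identical partners and segments at the threshold of the rule. Sequences, identities and locus order come from GENCODE M21 (GRCm38), an earlier build than the files', so no coordinates are given. Identity was computed with edlib. Promoter or protein sequences of these segments were not used here. Alternatives changed the pseudocount, filter, scaling, variance model, replicate block and libraries.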

Additional observations from a re-analysis of the deposited data

Results flagged for a closer look

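Among the 4 control libraries, 50 quantities (segments, totals and shares) were checked for a library set apart from the other 3, and 10 had a gap to the nearest value that exceeded the 95% limit of Dixon's test. Chance gives about 1 in 20 in quantities not picked for such a pattern. Many of these segments were named because they led a library or had a large fold change, so the 10 are values only and are not read against that share. The treated group, with 3 libraries, was not tested.

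Control 1 stood apart in 4 quantities. Ighv1-50 was 33.32 TPM there beside a median of 5.52 TPM in the other controls. The leading kappa segment held 13.94% of the Igkv total, beside a median of 8.65%. The leading lambda segment, Iglv1, held 81.83%, beside 71.0%. Lambda segments made up 6.248% of light-chain V TPM, beside 18.9%.

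Control 2 stood apart in Ighv1-77, at 3.09 TPM beside a median of 1.34 TPM, and this segment is among the 6 called.

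Control 3 stood apart in 3 segments, Ighv1-75 at 41.74 TPM beside 2.87 TPM, Igkv4-74 at 24.95 TPM beside 3.86 TPM, and Igkv2-137 at 2.98 TPM beside 0.78 TPM.

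Control 4 stood apart in 2 segments, Igkv6-15 at 43.63 TPM beside 3.45 TPM and Igkv6-13 at 14.41 TPM beside 1.91 TPM.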

How the results depend on the processing

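Depth was unknown, so calls at low TPM carry no counting error, and the labels do not tie libraries to animals. The count of called segments depended on the settings. The 2 called higher became 1 with a pseudocount of 0.1, 0 with no filter on low values (11 segments at an unadjusted p under 0.05), 5 with median-of-ratios scaling and 4 with robust variance. The 4 called lower became 0 with no filter, 1 with a TPM minimum of 5 (54 segments tested) and 2 with median-of-ratios scaling. In these settings the share of segments called stayed below that of all genes. It was 3.1% beside 11.3% with a pseudocount of 0.1 and 0% beside 0.0236% with no filter. It was 5.56% beside 14.3% with the TPM minimum of 5. Scaling gave 5.43% beside 14.9% and robust variance 6.98% beside 14.1%. Leaving out 1 library gave 2 to 13 higher and 2 to 9 lower, the 13 without control 3 and the 9 without treated 2. The share called passed that of all genes without control 3 (14% beside 9.91%) and treated 2 (12.4% beside 6.44%). It also did so without control 1 (9.3% beside 8.6%) and control 2 (8.53% beside 7.5%). It was lower without control 4 (6.98% beside 9.11%), treated 1 (4.65% beside 22.9%) and the third treated library (4.65% beside 9.88%). Leaving out control 3 and the third treated library together, chosen after seeing the data, gave 3 higher and 0 lower (26 at an unadjusted p under 0.05). The share called was then 2.33%, beside 6.39% of all genes.

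Over all genes, 643 were higher and 1136 lower. These became 3 and 4 with no filter. The higher count became 1234 with median-of-ratios scaling, beside 993 lower, and the lower count 1918 without mitochondrially encoded genes. Leaving out 1 library gave 433 to 834 higher and 531 to 2910 lower, and leaving out control 3 and the third treated library together gave 277 lower.

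Libraries of the same replicate number did not deviate together, with correlations of deviations over genes of -0.019 for number 1 and -0.09 for number 2. These values cannot decide whether the design was paired. With a replicate block over the 4 libraries numbered 1 and 2, 11 segments were higher and 1 lower, and 138 genes in all were lower. The share called with the block was 9.3% of the segments, beside 4.76% of all genes.

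Signs of uncalled segments turned in 28 of the 531 values recomputed for named segments. Leaving out 1 library moved the log2 fold change of Ighv1-34 between -0.56 and 0.72, Ighv1-82 between -0.12 and 1.17, Ighv11-2 between -0.30 and 0.54, Igkv1-110 between -0.17 and 0.74, Igkv14-126 between -0.50 and 0.42, Igkv6-15 between -1.09 and 0.072, Igkv6-23 between -1.87 and 0.26, Iglv1 between -0.65 and 0.067 and Iglv2 between -0.75 and 0.17. Igkv14-126 was 0.20 with median-of-ratios scaling and 0.066 without mitochondrially encoded genes. With the replicate block, Igkv14-126 was 0.56, Igkv6-15 0.36, Igkv6-23 0.10, Iglv1 0.54 and Iglv2 0.69. Without control 3 and the third treated library together, Igkv14-126 was 0.21, Iglv1 0.052 and Iglv2 0.074. The cause was not tested. Of the other values 435 kept sign and side of the threshold, 31 newly passed and 37 no longer passed.

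Ratios of summed Ighv, Igkv and Iglv TPM stayed within 0.942 to 1.37, 0.974 to 1.41 and 0.576 to 0.988 on leaving out 1 library, and the differences in top 5 shares within 0.682 to 5.44 and 3.29 to 10.75 percentage points. No setting moved a sum or share by more than the spread between libraries.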
